A study of Mus musculus with 3 samples.

Results

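The genes described here encode the subunits of the mitochondrial respiratory chain and of ATP synthase that are made from the nuclear genome, together with the Ndufaf assembly factors of complex I and with Cycs, the mobile carrier cytochrome c. They were chosen by gene symbol from the probe sets that the platform annotation pairs with exactly 1 symbol: every symbol beginning with Nduf, Uqcr or Atp5, and a fixed list of Sdh, Cox and cytochrome genes. This gave 84 genes of 18193 in all, represented by 172 probe sets, and each gene was read from its brightest probe set by the mean of the 3 arrays. Expression was measured on 1-colour arrays in dorsal skin of 4-day-old female BALB/cA mice, with 1 array per sample. The uncv null group (uncv -/-) had 2 arrays, called uncv null 1 and uncv null 2, and the wild type group (uncv +/+) had 1. All were sisters from crosses of uncv +/- parents, so the groups shared strain, sex, age and tissue. The uncv allele is a spontaneous mouse mutation with a hair loss phenotype, and the sources used here describe the null only as homozygous for it. Whole skin was used, so each value is a sum over epidermis, dermis, hair follicles and whatever lies beneath. The labels number the uncv null samples separately. The p-values and standard errors rest only on spread between those 2 arrays, and the wild type array adds none. For each gene that spread was drawn mostly towards a value shared by all tested genes (1 residual and 7.57 prior degrees of freedom).

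The respiratory chain passes electrons taken from nutrients to oxygen in the inner mitochondrial membrane. Complex I accepts them from NADH and complex II from succinate, complex III passes them on to cytochrome c, and complex IV reduces oxygen; complexes I, III and IV pump protons, and complex V, the ATP synthase, uses the proton gradient to make ATP. The other subunits of complexes I, III, IV and V are encoded by mitochondrial DNA, and 0 probe sets carried a symbol beginning with mt-, the prefix of those genes. In skin, mitochondrial respiration is known to take part in keratinocyte differentiation and hair follicle growth.

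Of the 84 genes, 79 had a mean log2 value of at least 5 and were tested. The other 5 were dim. Cox7c, a small complex IV subunit, was at 3.67 and 3.71 in uncv null skin and 3.53 in wild type skin. Ndufb4, an accessory subunit of complex I, was at 2.86 and 2.97 in uncv null skin and 2.92 in wild type skin, and the complex I assembly factor Ndufaf5 was at 4.13 and 4.52 in uncv null skin and 4.66 in wild type skin. Ndufaf6, another assembly factor, was at 4.35 and 4.70 in uncv null skin and 4.49 in wild type skin. Ndufb1, an accessory subunit, lay just outside the limit at 4.97 and 5.04 in uncv null skin and 4.89 in wild type skin. A dim probe set gives no evidence on whether the gene is expressed. Cox7b, a further small subunit of complex IV, was named in the list but had no probe set of 1 symbol and was not analysed here.

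Uncv null 1 stood apart on the quality probes, so values are given for each uncv null array. The 18S ribosomal RNA probe sets averaged 7.93 on uncv null 1 and 4.26 on uncv null 2, against 3.59 on wild type. The 3′ minus 5′ difference of Actb, beta actin, was 1.23 on uncv null 1 and 0.79 on uncv null 2, against 0.66 on wild type, and that of Gapdh was 0.018 on uncv null 1 and -0.27 on uncv null 2, against -0.29 on wild type. The median of all probe sets was 3.70 on uncv null 1, 3.65 on uncv null 2 and 3.70 on wild type.

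Promoter sequence was available for 70 of the 84 genes in RefSeq (build GRCm38.p6), as 75 windows of 300 bases that run from 250 before to 50 after the gene start. Nuclear respiratory factor 1 and the ETS family factor GABP are known activators of respiratory chain genes, so their motifs were searched on both strands, with a YY1 motif and a TATA box motif beside them. The NRF1 motif GCGCA-N-GCGC (N is any base) was present in 18 of the 75 windows (24%), against 10.3% of the 8821 windows of tested genes. The ETS motif CCGGAAG was present in 19 windows (25.3%), against 17.5% of those of tested genes. The YY1 motif AAGATGGC was in 10 windows (13.3%), against 4.48%, and the TATA motif TATAAA was in 7 (9.33%), against 7.99%. The ETS and YY1 motifs share the letters AAG at their junction, so 1 stretch can count for both. A match describes the letters in the window and not the binding of a factor. The median difference between genotypes was -0.046 for the 15 tested members with the NRF1 motif and -0.058 for the 51 without it. With and without the ETS motif it was -0.0089 (19 members) and -0.058 (47). For the YY1 motif it was -0.032 (10) and -0.053 (56), and for the TATA motif 0.0085 (6) and -0.056 (60). These splits were not tested. The 250 bases upstream of the gene start are printed below for the 3 genes of the ATP synthase c subunit, which carry the same mature protein from separate promoters, and for a complex IV gene and a complex II gene that hold both the NRF1 and the ETS motif. All lie on the minus strand and are written 5′ to 3′ toward the gene, with motif matches in capitals (CTTCCGG is the ETS motif on the other strand). Atp5g1 is at chr11:96075632-96075881, Atp5g2 at chr15:102671048-102671297, Atp5g3 at chr2:73911327-73911576, Cox6a1 at chr5:115348959-115349208 and Sdhd at chr9:50603850-50604099.
Atp5g1: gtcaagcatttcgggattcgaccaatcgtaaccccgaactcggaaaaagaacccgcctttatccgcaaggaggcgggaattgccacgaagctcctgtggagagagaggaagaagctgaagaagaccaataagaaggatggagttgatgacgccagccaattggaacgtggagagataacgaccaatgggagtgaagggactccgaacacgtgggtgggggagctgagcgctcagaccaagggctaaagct
Atp5g2: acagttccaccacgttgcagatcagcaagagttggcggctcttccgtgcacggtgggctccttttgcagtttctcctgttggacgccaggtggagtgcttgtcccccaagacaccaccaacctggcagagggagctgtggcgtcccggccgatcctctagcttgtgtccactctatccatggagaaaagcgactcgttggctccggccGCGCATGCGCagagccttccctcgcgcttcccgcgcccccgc
Atp5g3: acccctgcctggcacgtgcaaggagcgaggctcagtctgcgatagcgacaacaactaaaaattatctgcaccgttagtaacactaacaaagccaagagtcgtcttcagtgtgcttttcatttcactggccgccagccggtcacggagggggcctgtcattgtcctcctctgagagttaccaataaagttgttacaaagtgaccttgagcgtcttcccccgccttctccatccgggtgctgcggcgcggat
Cox6a1: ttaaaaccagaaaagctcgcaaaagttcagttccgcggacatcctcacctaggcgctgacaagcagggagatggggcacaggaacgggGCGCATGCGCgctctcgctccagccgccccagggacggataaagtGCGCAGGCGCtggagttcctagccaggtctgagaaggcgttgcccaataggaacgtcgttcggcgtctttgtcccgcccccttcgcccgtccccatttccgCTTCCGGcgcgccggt
Sdhd: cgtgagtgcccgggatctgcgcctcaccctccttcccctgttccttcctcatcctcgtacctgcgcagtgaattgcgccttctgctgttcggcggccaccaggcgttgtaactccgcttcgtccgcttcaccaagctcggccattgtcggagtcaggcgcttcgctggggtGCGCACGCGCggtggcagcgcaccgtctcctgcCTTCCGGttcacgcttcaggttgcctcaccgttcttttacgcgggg
The Atp5g1 stretch held none of these motifs and the Atp5g2 stretch held 1 NRF1 match. The Atp5g3 stretch held none, its NRF1 match lying just after the gene start. The Cox6a1 stretch held 2 NRF1 matches and 1 ETS match, and the Sdhd stretch 1 of each.

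Between uncv null and wild type skin, read from the brightest probe set of each gene, no respiratory chain gene differed by more than 0.38 on average, in log2 units, and the directions were mixed. Among the other tested probe sets of the members, those of Ndufab1 (1.30), Ndufv1 (0.82), Ndufa12 (-0.43) and Cox6c (-0.40) went beyond that size; these 4 were picked out after their values were seen. No member passed the test: limma with Benjamini-Hochberg adjustment over the 8456 tested genes called 0 members, 0 had an unadjusted p under 0.05, and the smallest adjusted p among them was 0.9997. Across all tested genes limma called 0.0% higher and 0.0% lower, and 4.56% had an unadjusted p under 0.05. None of the members reached a 2-fold difference on the same side in both uncv null arrays, a size that 0.225% of all tested genes reached upward and 0.296% downward. Mean differences in log2 units, taken as uncv null minus wild type, ran from -0.38 for Atp5g1, which encodes the c subunit of ATP synthase, to 0.23 for Ndufs7, an iron-sulfur subunit of complex I. Across members the lowest bound of a 95% interval was -1.002 and the highest 0.82; all 79 intervals included 0 and 78 lay within 1 log2 unit on either side. The median standard error was 0.26. Among all tested genes, 18.2% differed by as much as Atp5g1 or more.

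Both uncv null arrays lay above the wild type array for 19 of the 79 members and below it for 25, and lay on opposite sides for 35. Over all tested genes, 38.8% were above in both and 26.4% below in both, with the wild type array shared by both differences. The median member differed by -0.046, against 0.036 for all tested genes. The uncv null arrays did not place the members alike: uncv null 1 gave a median difference of -0.090 and uncv null 2 one of 0.031, so its sign depends on which of them is read. Over all tested genes the medians were 0.025 in uncv null 1 and 0.066 in uncv null 2, so the members' median was the lower on each array. For 51 of the 79 members the difference between genotypes was smaller than the gap between the uncv null arrays. The matching share of all tested genes was not computed, so the count is not read as a trait of the members. The differences had an SD of 0.13 among members and of 0.34 among all tested genes. Among the 53 members with a mean of at least 9 the SD was 0.13, against 0.29 among all tested genes that bright.

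**Figure D1:**
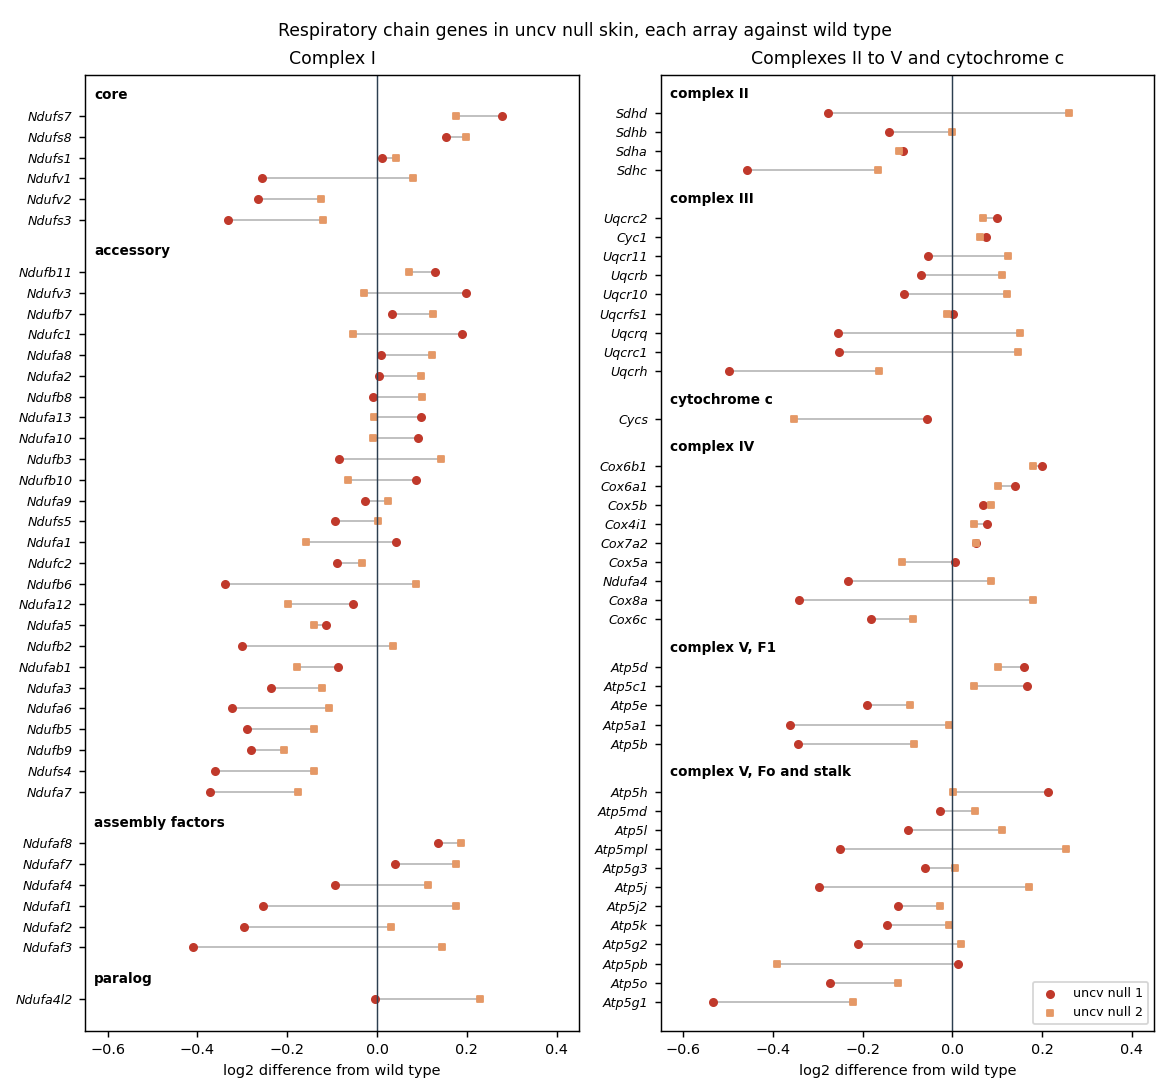
Difference from the wild type array, in log2 units, of each tested member in uncv null 1 and in uncv null 2, with members grouped by complex. The points of both arrays scatter around 0, and the mean differences lie between -0.38 and 0.23.

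Complex I held 34 of the genes, of which 32 were tested. Both uncv null arrays were above wild type for 7, below it for 12, and on opposite sides for 13, and the median difference was -0.052. In the catalytic core, Ndufs7 was at 9.11 and 9.01 in uncv null skin, against 8.83 in wild type skin, a difference of 0.23 ± 0.26 (limma standard error). Ndufs8, an iron-sulfur subunit beside it in the path to ubiquinone, was at 10.07 and 10.12 in uncv null skin, against 9.92 in wild type skin, a difference of 0.18. In both, the wild type value lay below both uncv null values, on the probe sets used. A second probe set of Ndufs7 gave -0.15, and of the 6 tested probe sets of Ndufs8, 3 were below wild type on both uncv null arrays (-0.14, -0.12 and -0.080). Ndufs3, a core subunit of the same module, lay the other way, at 9.15 and 9.36 in uncv null skin and 9.48 in wild type skin, as did Ndufv2, an iron-sulfur subunit of the NADH-binding tip, at 9.95 and 10.09 in uncv null skin and 10.21 in wild type skin. The other probe sets of Ndufv2 were above wild type by 0.16 and 0.19 in mean difference. Ndufv1, which binds NADH and the flavin, was at 8.94 and 9.27 in uncv null skin, on either side of 9.19 in wild type skin. Ndufs1, the largest nuclear-encoded subunit, was at 8.29 and 8.32 in uncv null skin and 8.28 in wild type skin. Of these 6 core genes, 3 lay above wild type in both arrays, 2 below and 1 on opposite sides.

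The accessory subunits surround the core and stabilise it. Of the 26 tested, 4 were above wild type on both uncv null arrays, 10 below in both and 12 on opposite sides. Ndufa7 had the lowest difference, at 9.31 and 9.50 in uncv null skin and 9.68 in wild type skin (-0.27 ± 0.26). Ndufs4, whose loss causes a mitochondrial encephalopathy in mice and humans, was at 7.91 and 8.13 in uncv null skin, against 8.27 in wild type skin, and Ndufb9, a membrane-arm subunit, was at 9.70 and 9.77 in uncv null skin, against 9.98 in wild type skin. On these probe sets the wild type value was the highest of the 3 arrays in each of the 3 genes, but a second probe set of Ndufb9 was at 9.87 and 9.81 in uncv null skin and 9.64 in wild type skin, with the wild type value the lowest. At the other end, Ndufb11, a membrane-arm subunit, was at 10.57 and 10.51 in uncv null skin and 10.44 in wild type skin, a difference of 0.10. Ndufb7, another membrane-arm subunit, was at 9.71 and 9.80 in uncv null skin, against 9.68 in wild type skin. Other probe sets gave -0.15 for Ndufb11 and -0.15 for Ndufb7. Ndufv3, attached to the NADH-binding tip, was at 8.54 and 8.31 in uncv null skin, on either side of 8.34 in wild type skin. The 6 tested assembly factors, which help build complex I but are not part of it, ranged from -0.13 for Ndufaf3 to 0.16 for Ndufaf8. Ndufaf3 was at 5.55 and 6.10 in uncv null skin, on either side of 5.96 in wild type skin. Ndufaf2, which acts late in assembly, was at 5.63 and 5.96 in uncv null skin and 5.93 in wild type skin. Ndufaf1 was at 6.02 and 6.45 in uncv null skin, on either side of 6.28 in wild type skin, and Ndufaf4, the partner of Ndufaf3, was at 6.39 and 6.60 in uncv null skin, on either side of 6.48 in wild type skin. None of the 6 was below wild type on both uncv null arrays. Ndufaf8 was at 7.77 and 7.82 in uncv null skin, against 7.64 in wild type skin, and its mean over all its probe sets, dim ones included, was -0.028. Ndufaf7, a methyltransferase that acts on a core subunit, lay just inside the limit for dim genes at 5.40 and 5.54 in uncv null skin and 5.36 in wild type skin. Ndufa4l2, a relative of a complex IV subunit that hypoxia is known to induce, was at 6.30 and 6.53 in uncv null skin and 6.30 in wild type skin.

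All 4 subunits of complex II, which is also the succinate dehydrogenase of the tricarboxylic acid cycle, were tested. The median difference was -0.093, and 3 of the 4 were below wild type on both uncv null arrays. Sdhc, a membrane anchor, was at 7.04 and 7.33 in uncv null skin and 7.49 in wild type skin, a difference of -0.31 ± 0.27. Sdha, the flavoprotein, was at 8.43 and 8.42 in uncv null skin and 8.54 in wild type skin, and a second probe set gave 0.10. Sdhb, the iron-sulfur subunit, was at 9.84 and 9.98 in uncv null skin and 9.98 in wild type skin, and uncv null 2 differed from wild type there by -0.0013. Sdhd, the other anchor and one of the genes whose promoter holds both motifs, was at 7.63 and 8.17 in uncv null skin, on either side of 7.91 in wild type skin. A second, dimmer probe set of Sdhd was below wild type on both uncv null arrays, with a mean difference of -0.27.

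All 9 tested genes of complex III had a median difference of 0.0069, with 2 above wild type on both uncv null arrays, 1 below and 6 on opposite sides; the median was -0.029 after a further quantile normalization and -0.039 after centring on the median of all tested genes, so it has no settled direction. Uqcrh, the hinge subunit that helps dock cytochrome c, was at 10.02 and 10.36 in uncv null skin and 10.52 in wild type skin, a difference of -0.33 ± 0.28. The core subunits Uqcrc1 and Uqcrc2 lay apart from it, Uqcrc1 at 9.35 and 9.75 in uncv null skin, on either side of 9.61 in wild type skin, and Uqcrc2 at 9.06 and 9.02 in uncv null skin, against 8.96 in wild type skin, with -0.20 on a second probe set. Cyc1, cytochrome c1, was at 10.25 and 10.23 in uncv null skin and 10.17 in wild type skin. Uqcrq, a small subunit near the ubiquinone site, was at 8.51 and 8.91 in uncv null skin, on either side of 8.76 in wild type skin, and so was Uqcr11, the smallest subunit, at 9.18 and 9.36 in uncv null skin and 9.24 in wild type skin. Uqcrb, a ubiquinone-binding subunit, was at 12.50 and 12.68 in uncv null skin, on either side of 12.57 in wild type skin, with -0.35 on a second probe set. Cycs, cytochrome c itself, was at 10.12 and 9.83 in uncv null skin and 10.18 in wild type skin, a difference of -0.21 ± 0.27.

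Complex IV, cytochrome c oxidase, had 5 of 9 tested members above wild type on both uncv null arrays, 1 below and 3 on opposite sides. Its median difference was 0.053, against 0.036 for all genes, but it was -0.040 when all probe sets of a gene were averaged and -0.077 when only probe sets with plain IDs were used, so its direction depends on the probe sets. Cox6b1, which helps join the monomers of the dimer, was at 11.33 and 11.31 in uncv null skin and 11.13 in wild type skin, a difference of 0.19 ± 0.26. Cox6a1, the widely expressed isoform whose promoter is printed above, was at 11.68 and 11.64 in uncv null skin and 11.54 in wild type skin. Cox5b, a matrix-side subunit, was at 11.27 and 11.28 in uncv null skin and 11.20 in wild type skin. Cox6c lay the other way, at 10.57 and 10.66 in uncv null skin and 10.75 in wild type skin. Cox8a, a small subunit, was at 8.60 and 9.12 in uncv null skin, on either side of 8.94 in wild type skin, and Ndufa4, a subunit that was first assigned to complex I, was at 10.20 and 10.52 in uncv null skin, on either side of 10.43 in wild type skin.

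All 17 tested genes of complex V had a median difference of -0.074, with 3 above wild type on both uncv null arrays, 7 below and 7 on opposite sides. The c subunit, the rotating ring of ATP synthase, is encoded by 3 genes. Atp5g1 was at 8.70 and 9.02 in uncv null skin and 9.24 in wild type skin, a difference of -0.38 ± 0.27 with a 95% interval of -1.002 to 0.25. Atp5g2 was at 9.78 and 10.01 in uncv null skin, on either side of 9.99 in wild type skin, and Atp5g3 was at 11.34 and 11.41 in uncv null skin, on either side of 11.40 in wild type skin. Of these 3 genes only Atp5g1 had the wild type value above both uncv null values, and differences between them were not tested. In the F1 head, which makes the ATP, Atp5b, the catalytic beta subunit, was at 9.86 and 10.12 in uncv null skin and 10.20 in wild type skin, and Atp5a1, the alpha subunit, was at 10.55 and 10.90 in uncv null skin and 10.91 in wild type skin. For Atp5a1 the direction depends on the probe set: a second one of similar brightness gave 0.026, and the mean of all its probe sets, which takes in a dim one, gave 0.32 against -0.18. Atp5d, the delta subunit of the central stalk, lay the other way, at 10.83 and 10.78 in uncv null skin and 10.68 in wild type skin, with -0.094 on a second probe set. Atp5c1, the gamma subunit of that stalk, was at 10.87 and 10.75 in uncv null skin and 10.70 in wild type skin, and Atp5h, subunit d of the outer stalk, was at 10.85 and 10.64 in uncv null skin and 10.64 in wild type skin, with -0.21 on a second probe set. Atp5o, which joins the head to the outer stalk, was at 10.08 and 10.24 in uncv null skin and 10.36 in wild type skin. Across the 5 complexes, medians ran from -0.093 in complex II to 0.053 in complex IV, and differences between complexes were not tested.

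**Figure D2:**
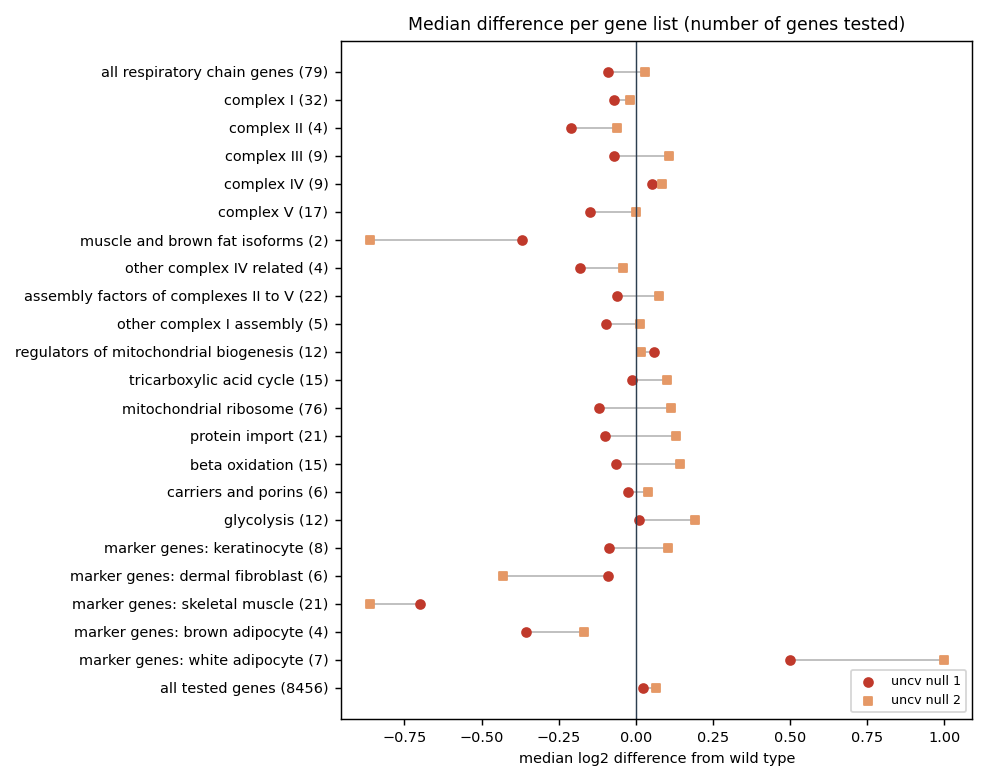
Median difference from the wild type array, in log2 units, of each complex, the other lists and all tested genes, for uncv null 1 and uncv null 2. The medians of the 5 complexes lie between -0.21 and 0.11; those of the skeletal muscle markers (-0.70 and -0.86), the muscle and brown fat isoforms (-0.37 and -0.86), the brown adipocyte markers (-0.35 and -0.17), the fibroblast markers (-0.089 and -0.43) and the white adipocyte markers (0.50 and 1.00) lie farther from 0 than any of these on at least 1 array; the median of complex IV is above 0 with the probe sets plotted and below 0 with plain IDs only (-0.077).

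**Figure D3:**
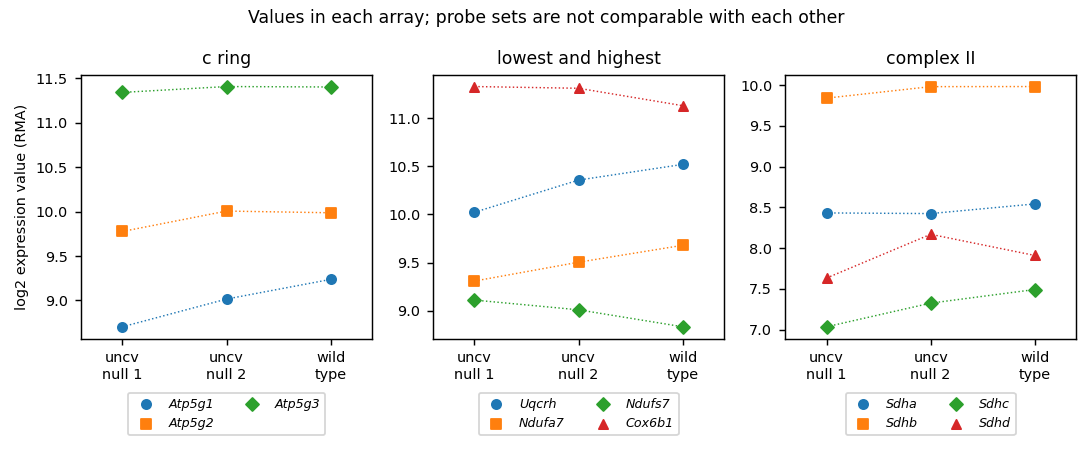
Log2 value of the c subunit genes, 4 members with low or high differences and the complex II genes on each array, the uncv null arrays to the left of the wild type array, with 1 dotted line per gene. In Atp5g1, Uqcrh and Ndufa7 the wild type value is the highest of the 3, and in Ndufs7 and Cox6b1 the lowest; levels of different genes are not comparable between probe sets.

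The members' values depend on the kind of probe set. Affymetrix IDs that end in _a_at, _s_at or _x_at mark probes that may match several transcripts or related genes, and plain _at IDs do not carry such a mark. Among the 56 tested member probe sets with plain IDs, 49 (87.5%) were below wild type in uncv null 1, against 50.8% of the 8335 plain probe sets over all genes. In uncv null 2, 26 of the 56 (46.4%) were below wild type, against 40.6%. Probe sets with a marked ID were below wild type in uncv null 1 for 55.6% of 81 in the members and 51.2% over all genes. Within the 30 member genes that had both kinds, the plain probe sets lay below the marked ones in 27 (90.0%) in uncv null 1 and in 16 (53.3%) in uncv null 2. Over the 1438 genes with both kinds, the shares were 54.9% and 51.0%.

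**Figure D4:**
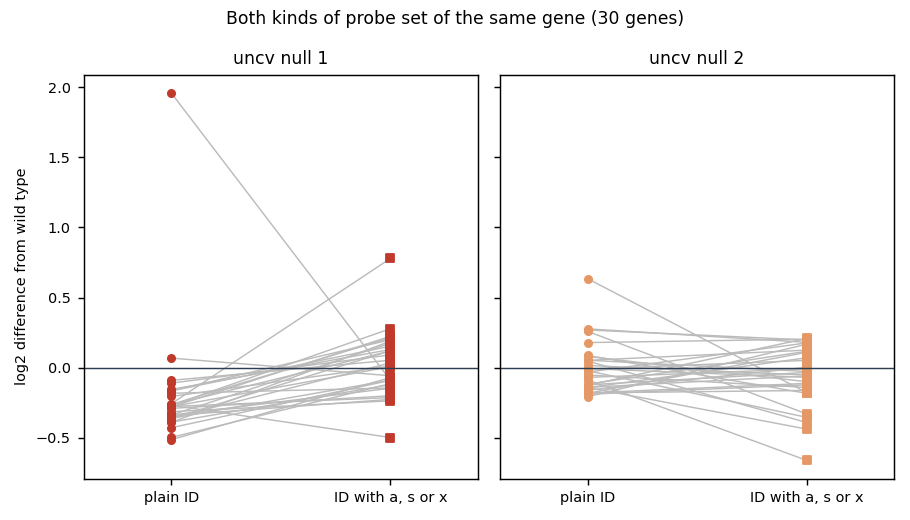
Difference of each uncv null array from the wild type array, in log2 units, for the 30 members with both kinds of probe set. Each is shown by its brightest plain and its brightest marked probe set. The median of plain minus marked within these genes is -0.29 for uncv null 1 and -0.021 for uncv null 2. All 56 plain and 81 marked tested probe sets of the members, which include ones not drawn, have medians of -0.25 and -0.066 for uncv null 1. For uncv null 2 those medians are 0.010 and -0.0050.

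The quality values on which uncv null 1 stood apart are given above, and their part in this split was not tested. With plain probe sets only, 54 members remained, of which 3 were above wild type on both uncv null arrays and 22 below, against 38.0% and 27.0% of all genes read that way. Of the 41 members with several tested probe sets, 18 had probe sets that differed in sign. Ndufab1, the mitochondrial acyl carrier protein, was above wild type by 1.96 and 0.63 on a second probe set and below it by 0.09 and 0.18 on the one used here, and Ndufv1 was above wild type by 1.48 and 0.16 on a second one. The others were Ndufb7, Ndufb9, Ndufb11, Ndufc1, Ndufs7, Ndufs8, Ndufv2, Sdha, Uqcrb, Uqcrc2, Cycs, Cox5b, Cox7a2, Atp5a1, Atp5d and Atp5h, whose tested probe sets lay 0.10 to 0.44 apart in mean difference.

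Isoforms of complex IV that are characteristic of muscle and brown fat are not members but stand in for the widely expressed subunits in those tissues, and the 2 that could be tested lay below wild type on both uncv null arrays. Cox8b was at 6.74 and 6.11 in uncv null skin and 7.20 in wild type skin (-0.78 ± 0.32), and Cox6a2, the muscle counterpart of Cox6a1, was at 7.33 and 6.98 in uncv null skin and 7.601 in wild type skin (-0.45 ± 0.28); neither passed the limma test. Cox7a1, another isoform of muscle and brown fat, was dim, and so were Cox4i2, a lung isoform, and the testis isoforms Cox6b2, Cox7b2 and Cox8c of the same list. Of the 24 skeletal muscle markers 21 were tested, and 17 of these were below wild type on both uncv null arrays and 2 above, with a median difference of -0.72, and 3 passed the 2-fold rule downward and 1, Actn3, upward. Myh4, Myh7 and Mb of the list were dim and not tested. The log2 of the summed linear level of the tested muscle markers was 13.97 and 13.78 in uncv null skin and 14.50 in wild type skin. Their part in the values of Cox8b and Cox6a2 was not tested. Embryonic myosin Myh3 was at 8.89 and 6.57 in uncv null skin, against 9.76 in wild type skin. In bulk skin, fewer muscle cells and less RNA per cell cannot be told apart. Of the 8 brown adipocyte markers 4 were tested, with 2 below wild type on both uncv null arrays and a median of -0.25. One of the 2 is Cox8b again, and the other is Fabp3, a fatty acid binding protein that muscle and heart also express, which passed the 2-fold rule downward at 6.504 and 6.26 in uncv null skin and 7.93 in wild type skin (-1.55 ± 0.27, limma adjusted p = 0.414). The other 2 tested brown adipocyte markers, Cidea and Elovl3, lay on opposite sides of wild type and above it on average. In uncv null 1 and uncv null 2, Cidea differed by -0.24 and 1.19 (mean 0.47) and Elovl3 by -0.18 and 0.76 (mean 0.29). The defining marker Ucp1, the uncoupling protein, was at 3.40 and 3.48 in uncv null skin and 3.10 in wild type skin, under the limit for testing.

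Markers of the skin itself were bright. The 8 keratinocyte markers were at a median difference of 0.0084, with log2 summed levels of 14.66 and 14.84 in uncv null skin and 14.73 in wild type skin, and each was at 8.87 or more on all arrays. All 6 fibroblast markers were below wild type on both uncv null arrays, with a median of -0.29 and log2 summed levels of 14.30 and 13.96 in uncv null skin and 14.39 in wild type skin. All 7 tested white adipocyte markers were above, with a median of 0.81 and log2 summed levels of 12.68 and 12.90 in uncv null skin and 12.29 in wild type skin. In uncv null 1 and uncv null 2, median differences were -0.51 and 0.42 for 5 melanocyte markers, 0.082 and 0.42 for 6 macrophage markers, -0.41 and -0.52 for 5 endothelial markers and -0.44 and -0.89 for 3 nerve and Schwann cell markers. The medians of the 2 arrays can come from different genes. Of the 5 endothelial markers, at 4.79 to 6.25, 2 were below wild type on both arrays and 3 on opposite sides, with a median mean difference of -0.15. The 1 tested red blood cell marker, Alas2, differed by -1.11 and -0.73. None of the marker genes passed the limma test, which called 0.0% of all tested genes. Of all tested genes, 38.8% were above wild type on both uncv null arrays and 26.4% below. The part of any of these cell types in the members' values was not tested.

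Other genes of mitochondrial energy metabolism also had no call, but limma called 0.0% of all tested genes. Over all tested genes, 38.8% were above wild type on both uncv null arrays and 26.4% below. Of the 22 tested assembly factors of complexes II to V, 7 were above wild type on both uncv null arrays and 6 below, with a median of -0.011. The 5 tested further assembly factors of complex I had a median of -0.0099 and the 4 further genes of complex IV one of -0.11. The 76 mitochondrial ribosomal proteins, which translate the mitochondrial DNA, had 18 above and 15 below and a median of 0.015. Mrpl54 was the lowest of them, at 5.63 and 6.31 in uncv null skin and 6.78 in wild type skin. The 12 tested regulators of mitochondrial biogenesis had 6 above and 4 below. Polrmt, the mitochondrial RNA polymerase, was at 6.26 and 6.35 in uncv null skin and 5.88 in wild type skin (0.42 ± 0.26), while Tfb2m, its transcription factor, was at 5.91 and 6.21 in uncv null skin and 6.38 in wild type skin. Ppargc1a, a coactivator of biogenesis, and Nrf1 were dim. The 15 tested genes of the tricarboxylic acid cycle had 5 above, 5 below and a median of 0.057, and the 21 tested protein import genes had 4 above and 6 below. The 6 tested carriers and porins had a median of 0.039. Slc25a4, the ATP/ADP carrier form of heart and muscle, was at 10.40 and 10.15 in uncv null skin and 10.77 in wild type skin. None of these genes passed the limma test.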

How the data were processed

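Expression was measured in total RNA of dorsal skin on 1-colour arrays, 2 of uncv null and 1 of wild type mice. The deposited values are log2 expression values from RMA, per the submitters' processing notes, which give no version; RMA corrects background, normalizes between arrays and summarises probes. Values between 1.96 and 13.1 fit that scale. Per the labels' protocols RNA was extracted with Trizol, whereas the series' design text gives another kit.

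The table held 45101 probe sets. Those with 1 symbol gave 18193 genes, each read from its brightest probe set by the mean of the 3 arrays, and genes with a mean of at least 5 were tested, which left 8456. Differences are uncv null minus wild type. The test was limma 3.58.1 (R 4.3.3), using lmFit with eBayes without a trend, p adjusted by Benjamini-Hochberg across the tested genes and a threshold of 0.05, with 1 residual degree of freedom and 7.57 prior ones. The script was tested on simulated data, where it recovered the mean of the set changes but made more false calls than the adjusted threshold allows. Members were matched to RefSeq by Entrez identifier (84 of 84). Text names each group's 3 highest and 3 lowest members by mean difference, all complex II genes, the c subunit genes and members whose probe sets differ in sign. The members, lists and markers were chosen with earlier results of these data known. The number of arrays limits the precision. Alternatives changed the filter, probe set per gene, normalization, variance model and replicates.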

Additional observations from a re-analysis of the deposited data

How the results depend on the processing

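The count of members called by limma was 0 in each setting that could be run: no filter on dim genes (84 members), a minimum of 7 (73 members), the mean of all probe sets (77 members), plain IDs only (54 members), a further quantile normalization, an intensity trend, an unadjusted threshold, and a fit over all 13559 tested probe sets, chosen after the data were seen. These counts of 0 do not show that the members are unchanged, since in the main setting limma called 0.0% of all tested genes. In the simulated data limma called a share of 0.300 of changes of 1 log2 unit, a size no member reached in the main setting. Those data also held changes of 2, 3 and 4 log2 units, of which limma called a share of 0.988 or more. The share of 0.300 cannot be carried over to these arrays, where the smallest limma adjusted p of any tested gene was 0.414. Members above wild type on both uncv null arrays numbered 19, but 3 with plain IDs, 11 after centring on the median and 28 to 45 when 1 uncv null array was left out. Members below in both numbered 25, but 36 after centring and 34 to 51 when 1 was left out. After centring, 32.6% of all tested genes were above in both and 32.6% below. With 1 array left out the counts above and below must be higher, since only the other array has to lie on the given side. Of all tested genes 53.5% to 58.8% were then above and 41.2% to 46.5% below, against 38.8% and 26.4% with both arrays. The complex I median was -0.052, but -0.0095 with the mean of probe sets, -0.15 with plain IDs and -0.098 after centring. The complex II median was -0.21 to -0.060 when 1 array was left out. The complex IV median was 0.053, but -0.040 with the mean of probe sets, -0.077 with plain IDs, 0.0055 after quantile normalization, 0.0068 after centring and 0.053 to 0.085 when 1 array was left out. When 1 was left out, the median of all members was -0.090 to 0.031, against 0.025 to 0.066 for all tested genes. That of complex III was then -0.071 to 0.11 and that of complex V -0.15 to 0.0021. For these the cause was not tested. Of 49 named members, the sign of the difference turned in 14 of 47 with the mean of probe sets, 9 of 34 with plain IDs, 3 with quantile normalization, 4 after centring, 13 without uncv null 1 and 4 without uncv null 2. With 1 uncv null array left out no residual degree of freedom remains, and centring was applied to the differences, so limma was not run for these. No paired analysis was possible because the wild type group has 1 array.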

Other observations

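Genes of glycolysis, the other main source of ATP outside the respiratory chain, are given for comparison. Of 12 tested, 6 were above wild type on both uncv null arrays and 3 below, with a median difference of 0.11, and none passed the limma test over all genes. Over all tested genes, 38.8% were above in both and 26.4% below. Pfkp, the platelet-type phosphofructokinase, was at 6.86 and 7.68 in uncv null skin and 6.37 in wild type skin, and Hk2, a hexokinase of growing and insulin-responsive tissue, was at 7.63 and 7.72 in uncv null skin and 6.997 in wild type skin. Pfkm, the muscle phosphofructokinase, lay the other way, at 7.72 and 7.61 in uncv null skin and 8.33 in wild type skin. Of 15 tested genes of beta oxidation, 7 were above in both and 2 below; Cpt2, which brings fatty acids into the matrix, was at 6.58 and 6.78 in uncv null skin and 6.30 in wild type skin. The white adipocyte and skeletal muscle markers had medians of 0.81 and -0.72, and their part in these differences was not tested.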
